A study of Mus musculus with 5 samples.

Results

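The 9 genes described here, Lrp2, Cubn, Amn, Dab2, Clcn5, Mme, Anpep, Dpep1 and Pdzk1, encode the megalin-cubilin endocytic apparatus and several proteins of the brush border of the kidney proximal tubule. They were taken by gene symbol, all 9 were found, and they are 9 of the 32285 genes in the merged single-cell count matrix. The matrix came from mouse kidneys after unilateral ischemia-reperfusion (UIR), a model of acute kidney injury (AKI) in which the left renal pedicle of male C57BL/6J mice aged 6 to 8 weeks was clipped for 35 minutes. Kidneys were taken at days 1, 3, 14 and 28, sham-operated mice had the same surgery without the clip, and each kidney sample pooled 3 mice. The right kidney of each mouse was left intact. The matrix holds 5 libraries that are told apart only by the number at the end of the barcode. The labels do not tie that number to a day or to sham, so no comparison between conditions was made, no p-value was computed, and the libraries are given as numbers 1 to 5 with their own values.

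Megalin, the product of Lrp2, and cubilin, the product of Cubn, are the large apical receptors with which proximal tubule cells take albumin, vitamin carrier proteins and other filtered proteins back from the urine. Amnionless (Amn) anchors cubilin in the membrane and carries it to the cell surface, and this pair is called cubam. Dab2 is a clathrin adaptor that binds the megalin tail, and Clcn5 encodes an endosomal chloride-proton exchanger whose loss causes low molecular weight proteinuria in Dent disease. Mme (neprilysin), Anpep (aminopeptidase N) and Dpep1 (dipeptidase) are peptidases on the surface of the brush border, and Pdzk1 is a PDZ scaffold protein that holds apical transporters in place. In GRCm38 the genes lie at chr2:69424340-69586065 (Lrp2, minus strand), chr2:13276338-13491813 (Cubn, minus), chr12:111271095-111276426 (Amn, plus), chr15:6299788-6440712 (Dab2, plus), chrX:7153810-7319358 (Clcn5, minus), chr3:63241537-63386030 (Mme, plus), chr7:79821803-79861059 (Anpep, minus), chr8:123186242-123201812 (Dpep1, plus) and chr3:96829284-96870926 (Pdzk1, plus). Havcr1 encodes KIM-1, a membrane protein made by injured proximal tubule cells.

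After cell calling, 57578 cells were kept, from 8258 to 18932 per library, with a median depth of 4038 to 5335 UMIs (unique molecular identifiers, each counting 1 captured transcript) per library. Among the kept cells 351 barcode sequences occurred in more than 1 library, on 703 cells. Cells were placed in classes by sums over fixed marker lists that held none of the 9 genes, and the proximal tubule gate took 46438 cells (80.7%). Within it 15360 cells passed the gate for segment S1, 13244 for S2 and 6598 for S3, the order in which filtrate passes through the tubule, and 11236 were not split. A further 3290 cells passed more than 1 gate and 2423 passed none, and both were left out. The sample labels call the cells goblet cells, but no cell passed a gate for goblet markers and the defining mucin gene Muc2 had 21 UMIs in all kept cells. Levels below are UMIs summed over the cells of a class scaled to a common total, as counts per 1000000 UMIs of that class (CPM), with exact Poisson 95% intervals where given, and these intervals cover counting error only.

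The upstream sequences of 3 members are shown because these genes stand for the patterns that follow, Lrp2 for a level that was even along the tubule, Dpep1 for one that was high in S1 and Mme for one that was high in S3. Each is the 250 bases before the annotated transcription start in RefSeq, build GRCm38.p6, written 5′ to 3′ on the strand of the gene, and capitals mark a match to the HNF4 core CAAAGT on either strand. RefSeq lists 3 starts for Mme and 2 each for Dab2, Clcn5 and Pdzk1. For these genes the first that matched the start of a coding transcript in GENCODE was used, so the Mme stretch lies inside the span of the gene given above. The Lrp2 stretch lies partly inside that of its gene. The only start listed for Dpep1 lies 7 bases from the nearest start of a coding transcript in GENCODE. The Lrp2 stretch lies at chr2:69586030-69586279 on the minus strand, the Dpep1 stretch at chr8:123185985-123186234 on the plus strand and the Mme stretch at chr3:63295622-63295871 on the plus strand.
Lrp2: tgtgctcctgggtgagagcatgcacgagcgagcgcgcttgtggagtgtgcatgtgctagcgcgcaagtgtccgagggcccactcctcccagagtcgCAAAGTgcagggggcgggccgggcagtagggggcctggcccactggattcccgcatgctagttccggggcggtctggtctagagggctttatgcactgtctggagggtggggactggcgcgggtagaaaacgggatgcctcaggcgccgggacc
Dpep1: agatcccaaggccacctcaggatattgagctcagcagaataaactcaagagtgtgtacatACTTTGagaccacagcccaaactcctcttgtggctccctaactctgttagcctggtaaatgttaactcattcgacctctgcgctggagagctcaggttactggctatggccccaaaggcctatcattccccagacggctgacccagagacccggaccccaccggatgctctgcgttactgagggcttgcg
Mme: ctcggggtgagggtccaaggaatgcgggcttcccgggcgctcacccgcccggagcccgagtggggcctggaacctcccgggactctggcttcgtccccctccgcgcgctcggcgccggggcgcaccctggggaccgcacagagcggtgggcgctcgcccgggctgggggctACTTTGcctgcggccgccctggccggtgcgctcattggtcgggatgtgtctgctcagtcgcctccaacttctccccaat
The core CAAAGT occurred in these 3 stretches and in that of Clcn5, thus in 4 of 9 members, against 12.6% of 32851 promoters of the same length. The HNF1 motif GTTAAT was found upstream of Dab2 only, against 6.43% of promoters, and the TATA motif TATAAA upstream of Clcn5 only, against 12.4%. No motif was found in the stretches of Cubn, Amn, Anpep and Pdzk1. These are matches of letters in a window and not measured sites.

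The 5427 gated cells outside the proximal tubule included 1342 macrophages and monocytes, 1050 thick ascending limb cells, 1009 T/NK cells and 918 neutrophils. Of the 9 genes, 8 were at least 1.5-fold higher in proximal tubule cells than in all these other gated cells together. The share was 21.7% of all genes with at least 5 CPM in either group. Mme was the exception and none was 1.5-fold lower, against 38.0%. Lrp2 stood at 875 CPM in proximal tubule cells and 53.2 CPM in the 5427 other gated cells (log2 ratio 4.04, 95% interval 3.96 to 4.12). Cubn stood at 175 against 11.02 CPM and Amn at 185 against 13.9 CPM, with log2 ratios of 3.99 and 3.74. Pdzk1 had 502 against 29.8 CPM, a log2 ratio of 4.08. Without library 3 the log2 ratios of Lrp2, Cubn, Amn and Pdzk1 were 4.64, 4.96, 4.83 and 5.13, and with the minimum of the proximal tubule gate doubled 3.29, 3.11, 3.17 and 3.36. Dpep1 followed at 63.7 against 8.30 CPM (log2 ratio 2.94). The adaptor Dab2 (347 against 117 CPM), the exchanger Clcn5 (94.1 against 34.8 CPM) and Anpep (33.6 against 12.9 CPM) had smaller log2 ratios of 1.57, 1.43 and 1.38. That of Anpep was 0.79 without library 3 and 2.31 without library 2. Mme was at 27.2 CPM in proximal tubule cells and 35.3 CPM elsewhere, a log2 ratio of −0.38 (−0.48 to −0.27). The sign of Mme was kept in 15 of 16 alternative settings and turned with the mean over cells (0.12). Within single libraries its log2 ratio ran from −1.48 in library 3 to 0.67 in library 2, whereas the other 8 genes were higher in the proximal tubule in each of the 5 libraries, with the lowest log2 ratio at 0.34 for Anpep in library 2.

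**Figure D1:**
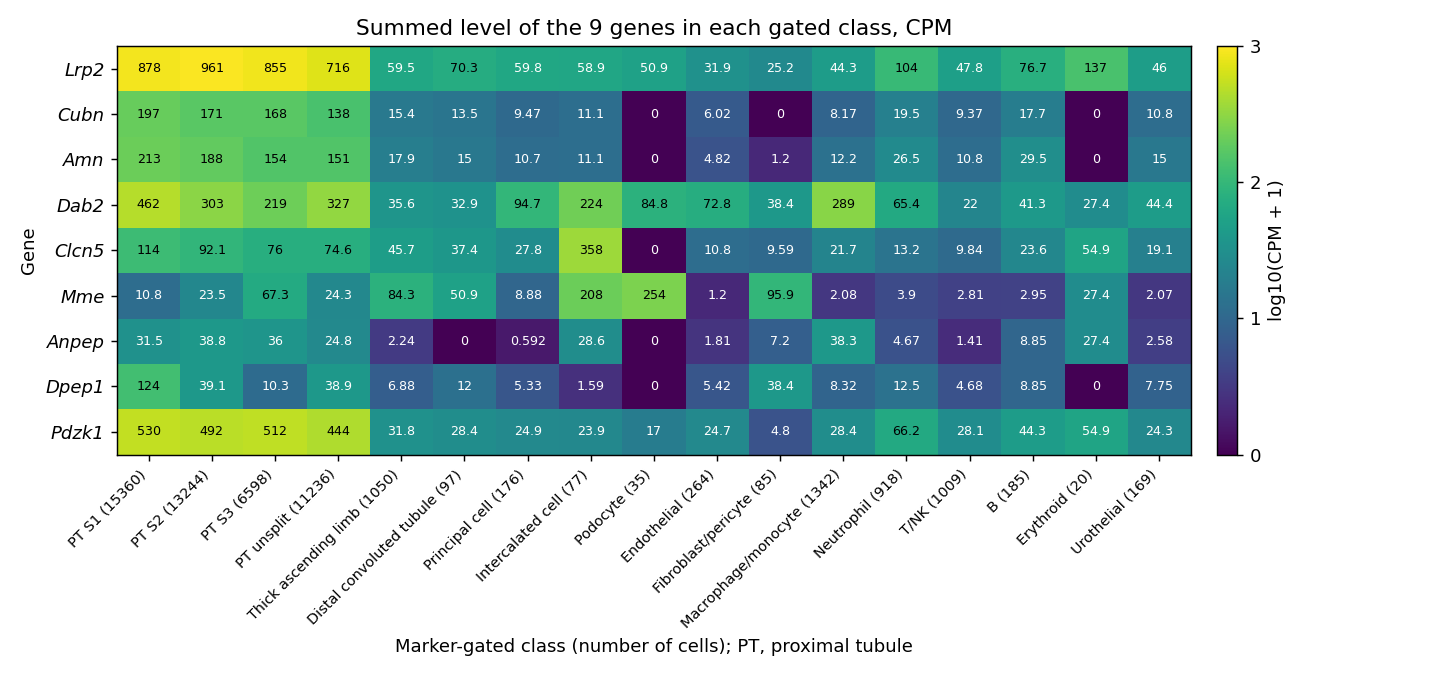
Heat map of the level of the 9 genes (rows) in each marker-gated class (columns, number of cells in parentheses). Colour is log10(CPM + 1) and the printed value is the CPM. Lrp2, Cubn, Amn and Pdzk1 were highest in the 4 proximal tubule columns, whereas Clcn5 reached 358 CPM in intercalated cells, Mme 254 CPM in podocytes and Dab2 289 CPM in macrophages and monocytes.

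In droplet data free RNA reaches every cell. The level it would give was computed for each class from the empty droplets of each library, scaled so that the genes of the proximal tubule gate matched their level in that class. T/NK cells, which should lack these genes, held 0.777 to 2.61 times this level for the 9 members. For Lrp2 the level outside the proximal tubule was 1.19 to 2.87 times the free RNA level in the 13 other classes, and for Pdzk1 0.666 to 2.03 times. Cubn did not exceed 1.78 times and Amn did not exceed 1.81 times in any of these classes, and both were at 0 UMIs in the 35 podocytes and the 20 erythroid cells. For Lrp2 the interval lay above the free RNA level in several classes, such as fibroblasts and pericytes (25.2 CPM, 15.6 to 38.5, against 8.77 CPM, on 21 UMIs), principal cells (59.8 CPM, 48.7 to 72.7, against 32.4 CPM) and neutrophils (104.4 CPM, 87.5 to 123.6, against 61.1 CPM). It also did so in T/NK cells, at 47.8 CPM (39.0 to 58.0) and 1.34 times the free RNA level. Values this near to the free RNA level are not read as expression of Lrp2, Cubn, Amn or Pdzk1 outside the proximal tubule.

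The other 5 genes stood above that background in particular classes. Clcn5 was at 358 CPM (313 to 408) in the 77 intercalated cells, the acid- and base-secreting cells of the collecting duct, 73.8 times the free RNA level and above its 94.1 CPM in the proximal tubule. At least 1 Clcn5 UMI was seen in 62.3% of intercalated cells, whose median depth was 7075 UMIs, against 2.08% of T/NK cells, whose median depth was 1756 UMIs. After every cell was thinned to 2000 UMIs, the shares were 34.3% of 70 intercalated cells, 15.5% of proximal tubule cells and 1.61% of 372 T/NK cells. In the 47 intercalated cells of library 3, the only library with at least 20 of them, Clcn5 stood at 419 CPM. Other segments of the nephron held less, with 45.7 CPM (40.8 to 51.2) in the thick ascending limb, 37.4 CPM (24.2 to 55.2) in the distal convoluted tubule and 27.8 CPM (20.5 to 37.0) in principal cells. These were 7.90, 6.51 and 7.24 times the free RNA level, against 2.61 times in T/NK cells. Without library 3 the level in principal cells was 12.8 CPM (6.15 to 23.6), on 10 UMIs.

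Mme stood higher in several other classes than in the proximal tubule. It was at 254 CPM (142 to 420) in podocytes, on 15 UMIs from 35 cells of a median depth of 879 UMIs, 25 of them from library 2. In intercalated cells it was at 208 CPM (174 to 247), in the 85 fibroblasts and pericytes at 95.9 CPM (76.1 to 119), in the 1050 cells of the thick ascending limb at 84.3 CPM (77.5 to 91.6) and in the 97 distal convoluted tubule cells at 50.9 CPM (35.2 to 71.1). The intervals of podocytes and intercalated cells overlap, as do those of the fibroblasts and pericytes and the thick ascending limb. All 5 were at least 30.1 times the free RNA level, and the thick ascending limb stood above the proximal tubule in each of the 5 libraries, with 65.2 to 141 CPM against 13.8 to 42.3 CPM.

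Dab2 was at 289 CPM (276 to 302) in the 1342 macrophages and monocytes, 14.9 times the free RNA level, with 261, 204, 398, 315 and 326 CPM in libraries 1 to 5. Intercalated cells had 224 CPM (189 to 265), principal cells 94.7 CPM and endothelial cells 72.8 CPM of Dab2. Anpep reached 38.3 CPM (33.8 to 43.3) in macrophages and monocytes, 24.5 times the free RNA level, and was uneven there between libraries, with 21.4, 82.4, 9.02 and 18.3 CPM in libraries 1 to 4 and none detected in the 36 cells of library 5. Without library 2 it stood at 15.0 CPM (11.6 to 19.1). In intercalated cells Anpep was at 28.6 CPM (17.0 to 45.3) on 18 UMIs, 16.9 times the free RNA level, and at 47.8 CPM without library 3. Dpep1 was above background outside the proximal tubule in the fibroblasts and pericytes, at 38.4 CPM (26.3 to 54.2) on 32 UMIs, 84.2 CPM without library 1 and 24.7 CPM without library 3.

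Within the proximal tubule, the 3 segment gates separated the members into 3 patterns. Dpep1, Dab2 and Clcn5 were at least 1.5-fold higher in S1 than in S3, against 19.1% of all tested genes, and Mme was at least 1.5-fold lower, against 8.95%. Lrp2, Cubn, Amn, Anpep and Pdzk1 stayed within 1.5-fold. Thus Lrp2, Cubn and Pdzk1 changed little along the tubule, whereas 2 of the 3 peptidases ran in opposite directions.

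Dpep1 stood at 124 CPM in S1, 39.1 CPM in S2 and 10.3 CPM in S3, and the log2 ratio of S1 to S3 was 3.59 (3.46 to 3.72). In S1 the libraries gave 170, 158, 79.9, 165 and 152 CPM and in S3 8.05, 7.18, 24.1, 30.6 and 10.96 CPM, so S1 and S3 did not overlap. Library 3 had the lowest S1 level, and libraries 3 and 4 had the highest S3 levels. Mme went the other way with 10.8, 23.5 and 67.3 CPM in S1, S2 and S3 and a log2 ratio of −2.64 (−2.74 to −2.53). Its S1 level was 8.32 to 13.6 CPM over the libraries, and its S3 level was 53.2, 103, 29.0, 27.4 and 66.1 CPM in libraries 1 to 5. S1 and S3 again did not overlap, but the S3 level of libraries 3 and 4 was below that of the other 3 and below the S2 level of library 2, 31.4 CPM.

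Dab2 fell from 462 to 303 and 219 CPM between S1, S2 and S3 (log2 ratio of S1 to S3 1.08, 1.05 to 1.11), and its log2 ratio was 0.57 to 1.30 in the single libraries. Clcn5 had 114, 92.1 and 76.0 CPM, a ratio that lies on the 1.5-fold line and was under it in 11 of 17 alternative settings, with the same direction in each library (log2 ratio 0.35 to 0.63). Amn had 213, 188 and 154 CPM (log2 ratio 0.46) and was also higher in S1 in each library, past 1.5-fold in library 1 (0.65) and library 5 (0.62). Its log2 ratio was 0.77 without library 3 and 0.18 without library 1. Lrp2 gave 878, 961 and 855 CPM and Pdzk1 530, 492 and 512 CPM, with log2 ratios of S1 to S3 of 0.04 and 0.05. For Lrp2 the sign differed between libraries, from −0.42 in library 3 to 0.12 in library 2. Cubn had 197, 171 and 168 CPM, with a pooled log2 ratio of 0.23 but 0.0087 to 0.16 within single libraries, where the interval included 0 in libraries 2, 3 and 5. Anpep had 31.5, 38.8 and 36.0 CPM, with a pooled log2 ratio of −0.19 but −0.51 to −0.21 within libraries, where the interval included 0 in libraries 3 and 4. For both genes pooling over libraries gave a value outside the range of the single libraries.

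**Figure D2:**
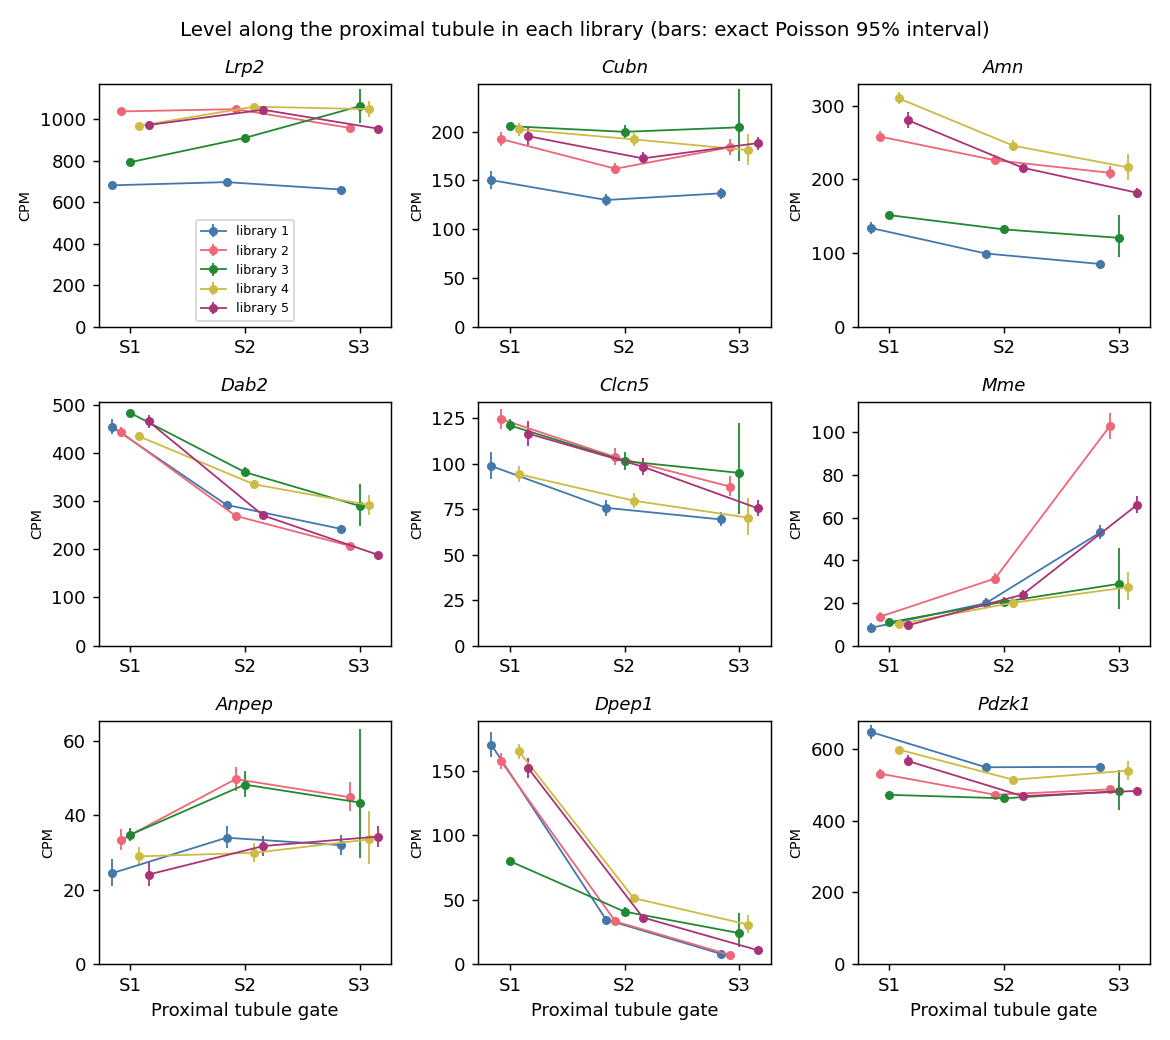
Level in CPM (vertical axis, starting at 0) of each gene in S1-, S2- and S3-gated proximal tubule cells, with 1 coloured line per library and bars for the exact Poisson 95% interval. Dpep1 and Dab2 were higher in S1 than in S3 and Mme was lower in all 5 libraries, and Lrp2 and Cubn were lowest in library 1 in each segment.

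The same contrast was read in the other genes of the pathway. Of 20 genes of the endocytic machinery 4 were at least 1.5-fold higher in S1 and 1 was lower, shares close to or under the 19.1% and 8.95% of all tested genes, with a median log2 ratio of 0.42 against 0.17 over all tested genes. The highest were the AP-2 subunit gene Ap2a2 (124 against 66.4 CPM), Ctns for the lysosomal cystine transporter (22.8 against 12.4 CPM) and Ap2b1 (34.0 against 19.4 CPM). The lower count was 1 in library 2 and 0 in each other library and without library 3. The higher count was 3, 3, 6, 4 and 7 of 20 in libraries 1 to 5, against 18.1%, 19.8%, 20.1%, 12.9% and 18.9% of tested genes. The lowest in the pool were Lrpap1, the chaperone of megalin (339 against 559 CPM), the neonatal Fc receptor gene Fcgrt (125 against 161 CPM) and Rab5a (38.3 against 35.8 CPM). Among 10 further brush border enzymes 5 were lower and 2 higher in S1, with Mep1b (1.75 against 206 CPM), Ace (7.84 against 84.2 CPM) and Mep1a (186 against 1124 CPM) lowest and Alpl (262 against 37.5 CPM), Xpnpep2 (7.001 against 3.694 CPM) and Dpp4 (36.1 against 34.8 CPM) highest. Mme had the direction of the first 3 and Dpep1 that of Alpl. Of the 11 scaffold genes with enough counts 4 were higher and none lower. Pls1, Myo7b and Ezr were highest, with log2 ratios of 0.94, 0.86 and 0.78, and Slc9a3r1, Eps8 and Cdhr2 lowest, with −0.29, −0.17 and −0.07. Of 9 injury genes with enough counts 7 were at least 1.5-fold higher in S1 and none lower, with a median log2 ratio of 1.405. In libraries 1 to 5 the higher count was 5 of 8, 6 of 9, 5 of 9, 5 of 8 and 3 of 5. The lower count was 2, 1, 0, 1 and 1, against 9.3%, 8.95%, 12.8%, 8.29% and 10.5% of tested genes. S1- and S3-gated cells thus also differed in injury transcripts, and the part of this in the values of the members was not tested.

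Over all proximal tubule cells the libraries differed in several members. Amn ranged most among the endocytic genes, with 96.7, 224, 139, 268 and 213 CPM in libraries 1 to 5. Libraries 1 and 3 were the low ones in S1, S2 and S3 alike. Lrp2 had 659, 990, 770, 1002 and 982 CPM, and library 1 was lowest in each segment, with 661 to 697 CPM. Cubn was likewise lowest in library 1, at 133 CPM against 172 to 190 CPM. Pdzk1 was highest in library 1, at 561 CPM against 450 to 543 CPM. Library 1 was therefore low in the receptor genes and not in the scaffold gene.

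Mme had 31.7, 42.3, 13.8, 17.4 and 35.8 CPM in the proximal tubule of libraries 1 to 5, and the share of S3-gated cells there was 28.8%, 17.7%, 0.81%, 5.61% and 27.4%. Libraries 3 and 4, with the fewest S3 cells, had the least Mme, and the part of the segment shares in these pooled levels was not tested. Dab2 was highest in library 3, at 438 CPM against 283 to 372 CPM, and library 3 also had the largest S1 share, 49.8%. Within S1 the Dab2 level was 434 to 483 CPM over the libraries. Within S2 libraries 3 and 4 were the high ones, at 359.7 and 334.5 CPM against 269 to 292 CPM, and within S3 likewise, at 289.6 and 291.5 CPM against 188 to 242 CPM. Dpep1 ran from 45.1 CPM in library 1 to 96.2 CPM in library 4. Clcn5 (74.4 to 108 CPM) and Anpep (28.6 to 41.1 CPM) varied by less than 1.5-fold between libraries. Whether these differences follow a condition could not be read, since library and condition cannot be matched.

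Havcr1 was detected in 3515 proximal tubule cells (7.57%), with 168, 412, 2547, 353 and 35 cells in libraries 1 to 5, so 1 library held most of them. Among proximal tubule cells the share was 2.15% to 4.89% in libraries 1, 2 and 4, 17.8% in library 3 and 0.412% in library 5. Havcr1 UMIs were seen in 1.19% of T/NK cells, in which the median depth was 1756 UMIs, and by library in 0 of 441, 2 of 381, 8 of 109 and 2 of 61 T/NK cells in libraries 1 to 4. In library 3 this is 7.34% (3.22% to 13.9%). After thinning to 2000 UMIs, library 3 had Havcr1 in 9.29% (8.73% to 9.86%) of proximal tubule cells, in 11.4% (3.79% to 24.6%) of 44 T/NK cells and in 4.64% (3.13% to 6.60%) of 625 cells of the thick ascending limb. Over all libraries Havcr1 stood at 6.09 CPM (3.24 to 10.4) in T/NK cells, against a free RNA level of 3.06 CPM. In the thick ascending limb it was at 18.5 CPM (15.4 to 22.1), against 7.4 CPM. Whether the UMIs in these 2 classes are free RNA was not tested. A single Havcr1 UMI is not read as expression, and Havcr1-bearing below says only that a UMI was captured. The Havcr1 UMIs numbered 7055 in the 3515 proximal tubule cells and 13 in the 12 T/NK cells. In library 5, 30 of the 35 Havcr1-bearing cells were S3-gated, so its values below set mostly S3 cells against all segments, and no direction is read from them. Havcr1-bearing cells were deeper than Havcr1-free cells (median 7012 against 4852 UMIs) and held less of the proximal tubule marker list (97.5 against 151 UMIs per 10000). In the pool fewer of them were S3-gated (6.12% against 14.9%). Within libraries 1 to 5, however, Havcr1 was seen in 0.268%, 3.5%, 15.6%, 2.97% and 0.166% of S1-gated cells. In S3-gated cells the shares were 2.62%, 4.70%, 24.1%, 6.80% and 1.29%, higher than in S1 in each library. Segment makeup is therefore not read from the pooled shares. Of the marker lists for other cells, that of the thick ascending limb stood at 48.8 against 32.0 CPM, that of neutrophils at 30.8 against 17.9 CPM and that of macrophages and monocytes at 38.6 against 41.4 CPM. The part of these lists in the values below was not tested, and depth was made equal in the thinned cells described further on. Of 10 injury genes with enough counts 7 were at least 1.5-fold higher in Havcr1-bearing cells and none lower, with Vcam1 (37.8 against 6.06 CPM), Sox9 (51.2 against 8.70 CPM) and Krt20 (9.17 against 1.67 CPM) highest and Vim, Krt8 and Krt18 lowest (log2 ratios −0.10, 0.16 and 0.46). Of all tested genes 5.30% were higher and 2.55% lower in the pool. Within libraries 1 to 4, 7, 7, 3 and 9 of the injury genes were higher, against 10.8%, 9.86%, 1.05% and 5.78% of tested genes. Of these genes 2, 1, 0 and 0 were lower, against 6.46%, 3.52%, 1.58% and 4.06%.

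Only 1 of the 9 members, Dpep1, was at least 1.5-fold lower in Havcr1-bearing cells, against 2.55% of all tested genes, and none was 1.5-fold higher, against 5.30%. The median log2 ratio of the 9 was −0.17, and that of all tested genes 0.05. Dpep1 stood at 43.1 CPM in Havcr1-bearing and 66.2 CPM in Havcr1-free cells (log2 ratio −0.62, −0.70 to −0.53). Within libraries 1 to 5 its Havcr1-bearing level was 18.5, 33.7, 47.7, 45.4 and 11.7 CPM, and the Havcr1-free level 46.1, 66.4, 68.8, 100.1 and 51.0 CPM. It was lower in libraries 1 to 4, with log2 ratios of −1.32, −0.98, −0.53 and −1.14, and library 5 gave −2.13 on 4 UMIs, near the S3 level of that library. In each library Havcr1 was seen in a smaller share of S1- than of S3-gated cells, and Dpep1 was highest in S1. Library 1 had only 3 S1-gated cells with Havcr1. The part of segment makeup in these sizes was not tested. Dpep1 was also lower within each segment, with pooled log2 ratios of −0.87 in S1, −0.31 in S2 and −0.89 in S3. In S1 libraries 2 to 4 gave −0.76, −0.35 and −0.78, and in S2 libraries 1 to 4 gave −0.63, −0.39, −0.34 and −0.705. The pooled values of S1 and S2 lay outside these ranges, so no size is read from them. The cells were also split by library and by S1, S2 or S3 at once, which was chosen after seeing the data. In this split 12 combinations had at least 20 cells in both groups. Dpep1 was lower in the 11 of these that gave a ratio (−1.75 to −0.32), and in S3 these values rest on at most 6 UMIs each. Unsplit cells, among them 1022 Havcr1-bearing ones, are not part of the 12. In them Dpep1 was at −2.34 (on 3 UMIs), −0.97, −0.63 and −1.60 in libraries 1 to 4. The pooled log2 ratio was −0.56 without library 2 and −0.45 without library 4, both short of 1.5-fold, and −0.93 without library 3.

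Lrp2 had 745 CPM in Havcr1-bearing and 890 CPM in Havcr1-free cells (log2 ratio −0.26, −0.28 to −0.24). It was lower in libraries 1 to 4, with log2 ratios of −0.21, −0.25, −0.14 and −0.24, and library 5 gave −0.24. By segment it was at −0.33 in S1, −0.11 in S2 and −0.06 in S3, where the interval of −0.13 to 0.0052 included 0. It was lower in 9 of the 12 combinations of library and segment (−0.41 to 0.12). Pdzk1 had 423 against 511 CPM (log2 ratio −0.27), with −0.23, −0.22, −0.17 and −0.33 in libraries 1 to 4 and 0.11 in library 5. It was lower in 9 of the 12 combinations (−0.37 to 0.15), and its interval in S3, −0.13 to 0.05, included 0. In unsplit cells of libraries 1 to 4 Lrp2 was at −0.37, −0.25, −0.0087 and −0.48. Pdzk1 was there at −0.66, −0.40, −0.28 and −0.27, past 1.5-fold in library 1. In cells with at least 2 Havcr1 UMIs the pooled log2 ratios were −0.48 for Lrp2, −0.46 for Pdzk1 and −1.02 for Dpep1. Megalin and Pdzk1 transcripts were thus lower in Havcr1-bearing cells by less than 1.5-fold, in libraries 1 to 4 over all segments and in S1 and S2 of the pool.

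Among the partners of megalin, Cubn was at 169 against 176 CPM (log2 ratio −0.06, −0.10 to −0.01) and was below 0 in libraries 1 to 4, at −0.09, −0.07, −0.15 and −0.28, with intervals that included 0 in libraries 1 and 2. In libraries 3 and 4 these values were of the size of those of Lrp2. The pooled value of Cubn lay above all 4 and that of Lrp2 slightly below those of its libraries, so their sizes are read within libraries. Clcn5 was at 108 against 92.5 CPM (log2 ratio 0.22), and at 0.41, 0.18, 0.07 and 0.0094 in libraries 1 to 4. Its interval included 0 in library 4 (−0.17 to 0.18) and reached down to 8.67e-05 in library 3. Anpep was at 35.7 against 33.3 CPM (log2 ratio 0.10), with signs that differed between libraries. Libraries 1 to 4 gave −0.37, −0.07, 0.05 and 0.08, all below the pooled value of Anpep, from which no direction is read. For Amn, Dab2 and Mme the pooled value also lay outside the range of libraries 1 to 4, and library 3 held 2547 of the Havcr1-bearing cells and 116 of the S3-gated cells. Amn had a pooled log2 ratio of −0.18 and was between −0.03 and 0.04 within libraries 1 to 4. Dab2 had a pooled log2 ratio of 0.11 and was below 0 within libraries 1 to 4, from −0.27 to −0.02, but in 6 of the 12 combinations of library and segment. Mme had a pooled log2 ratio of −0.17 and was above 0 within libraries 1 to 4, at 0.60, 0.16, 0.23 and 0.44, and in 10 of the 12 combinations (−0.64 to 1.49). Library 5, with mostly S3 cells, gave 1.83. Without library 3 the log2 ratios were 0.11 for Amn, −0.07 for Dab2 and 0.39 for Mme, and no direction is read from their pooled values.

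**Figure D3:**
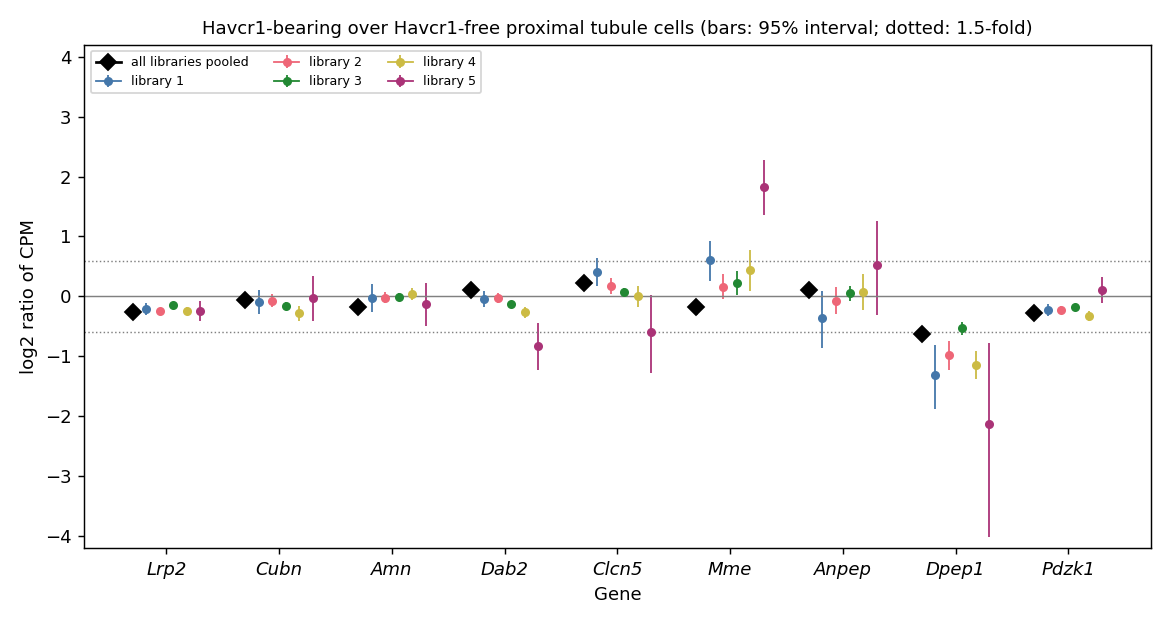
Log2 ratio of CPM (vertical axis) of Havcr1-bearing over Havcr1-free proximal tubule cells for each gene, with black diamonds for all libraries pooled, coloured points for libraries 1 to 5, bars for the 95% counting interval and dotted lines at 1.5-fold. Dpep1 and Lrp2 lay below 0 and Mme above 0 in libraries 1 to 4, while the pooled value of Mme was −0.17, and the points of library 5 rest on 35 cells, 30 of them S3-gated.

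To set cells of equal depth side by side, the 35481 proximal tubule cells with at least 2000 UMIs were thinned to 2000 UMIs each, and 10957 shallower cells were left out. Of the thinned cells 34157 had no Havcr1 UMI, 1087 had 1, 151 had 2 and 86 had 3 or more. Lrp2 stood at 874, 727, 606 and 349 CPM in these 4 steps, and the intervals at 0, 1 and 3 or more did not overlap. Pdzk1 stood at 505, 403, 301 and 262 CPM and Dpep1 at 67.1, 36.3, 26.5 and 17.4 CPM. In library 3 alone, with 9389, 805, 108 and 48 cells, Lrp2 had 793, 702, 634 and 396 CPM and Pdzk1 462, 404, 329 and 250 CPM, the same order as in the pool. Dpep1 there had 65.6, 36.7, 37.0 and 20.8 CPM. In the top 2 steps Dpep1 rests on 8 and 3 UMIs in the pool (3.60 to 51.0 CPM in the highest) and on 8 and 2 UMIs in library 3. At 1 Havcr1 UMI the Lrp2 interval held the Havcr1-free level in library 1 (440 to 750 against 628 CPM) and library 4 (831 to 1098 against 992 CPM). In library 2 it lay below that level (639 to 866 against 990 CPM). Segment makeup was not made equal over the steps. Before thinning, library 3 had 1546 Havcr1 UMIs in 724 unsplit cells and 1693 in 1111 S1-gated cells. In its Havcr1-free cells Lrp2 was at 531 CPM in unsplit, 816 CPM in S1- and 937 CPM in S2-gated cells. Pdzk1 was there at 388, 482 and 473 CPM. The part of segment makeup in the steps was not tested.

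For Dab2 the pool gave 356, 380, 358 and 355 CPM, and library 3 alone 448, 408, 370 and 427 CPM. At 1 Havcr1 UMI its interval lay below the Havcr1-free level in library 3 (377.5 to 440.5 CPM). It also did so in library 2 (237 CPM, 179 to 309, against 317 CPM), and it held that level in libraries 1 and 4. At 3 or more Havcr1 UMIs the interval in library 3, 307 to 579 CPM, held the Havcr1-free level, so a difference there was not detectable for Dab2 at this depth. The interval of Lrp2 in the same 48 cells, 280 to 543 CPM, lay below its Havcr1-free level. Amn had 183, 171, 166 and 180 CPM in the pool and 136, 152, 130 and 115 CPM in library 3, and Clcn5 89.3, 100.3, 82.8 and 116 CPM in the pool and 102, 109, 83.3 and 135 CPM in library 3. Cubn had 177, 173, 99.3 and 163 CPM in the pool, of which the level at 2 UMIs rests on 30 Cubn UMIs, and 193, 178, 116 and 115 CPM in library 3. At 2 Havcr1 UMIs its interval lay below the Havcr1-free level in the pool (67.0 to 142 CPM) and in library 3 (74.9 to 171 CPM), and at 3 or more it held that level in both (108 to 235 and 57.2 to 205 CPM). Mme and Anpep, at 40.7 and 11.6 CPM in the highest step of the pool, rest there on 7 and 2 UMIs.

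**Figure D4:**
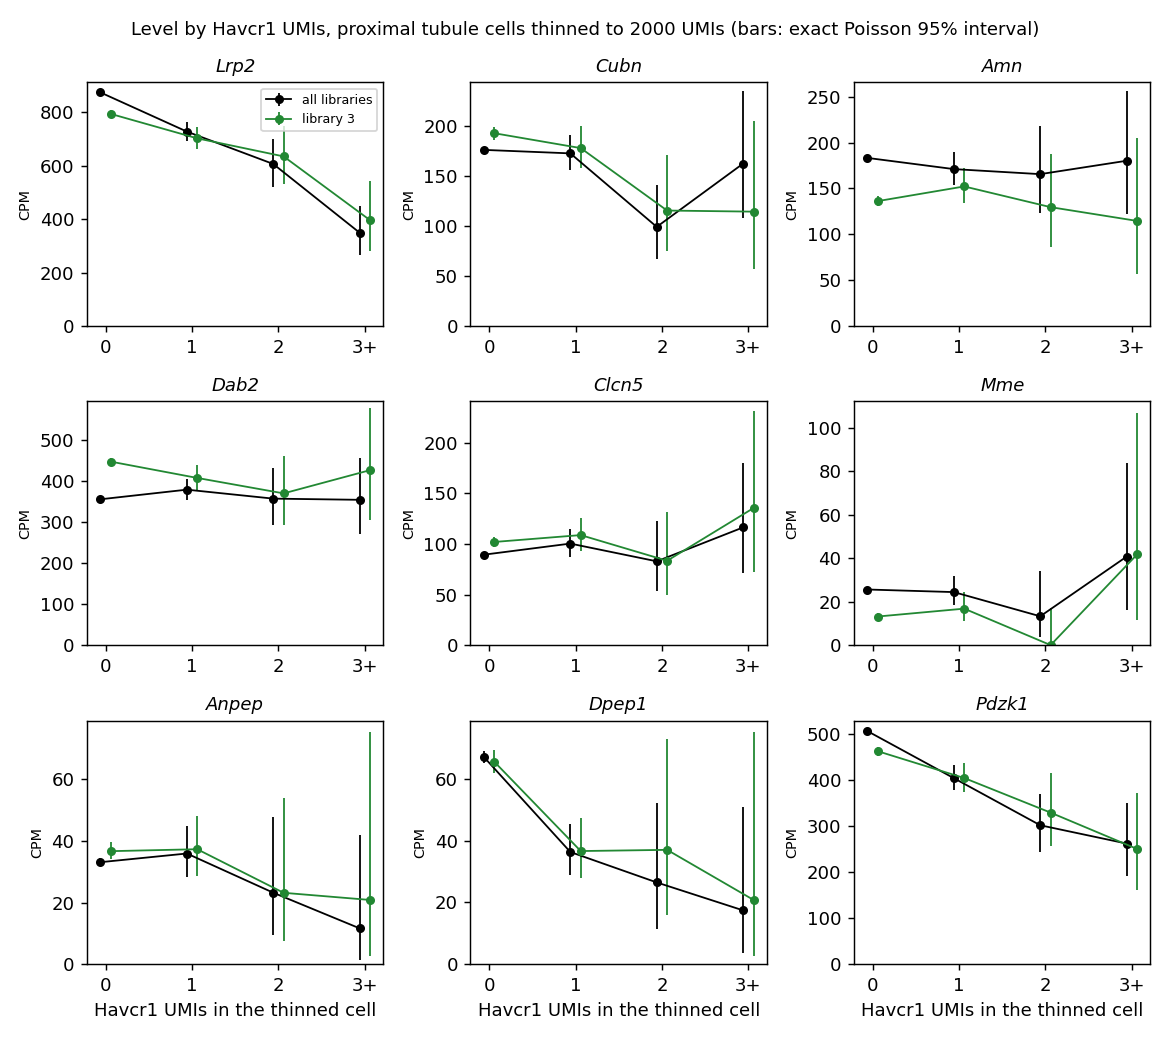
Level in CPM (vertical axis, starting at 0) of each gene in proximal tubule cells thinned to 2000 UMIs, by the number of Havcr1 UMIs left in the cell (horizontal axis), for all libraries (black) and library 3 (green), with exact Poisson 95% intervals. Lrp2 went from 874 to 349 CPM and Pdzk1 from 505 to 262 CPM between 0 and 3 or more Havcr1 UMIs, and Dab2 from 356 to 355 CPM, or from 448 to 427 CPM in library 3. Segment makeup was not made equal over the steps.

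In the thinned cells, Lrp2, Cubn and Amn were detected together in 7.03% of proximal tubule cells (6.77% to 7.30%, exact Clopper-Pearson), 8.63% of S1-, 7.04% of S2- and 6.07% of S3-gated cells, and in 0 of 372 T/NK cells. None of the 3 was detected in 18.4% (16.3% to 20.6%) of the 1324 Havcr1-bearing thinned cells and in 13.2% (12.8% to 13.5%) of Havcr1-free ones. Within libraries 1 to 4 the share with none was 33.8%, 15.8%, 19.0% and 8.06% of Havcr1-bearing and 22.4%, 10.3%, 15.3% and 8.06% of Havcr1-free cells. The intervals were apart in library 3 (16.6% to 21.7% and 14.6% to 16.0%), overlapped in libraries 1, 2 and 4, and library 5 had under 20 Havcr1-bearing thinned cells. All 3 were detected in 6.04% (4.82% to 7.46%) and 7.07% (6.80% to 7.35%), intervals that overlap. At this depth a cell without a UMI may still hold the transcript.

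Most other genes of the apparatus stayed within 1.5-fold between Havcr1-bearing and Havcr1-free cells. None of the 20 endocytic machinery genes passed in either direction in the pool, and their median log2 ratio was 0.13. Within libraries 1 to 4 none was lower, and the median was −0.02 to 0.13. Of the 20, 1, 2, 0 and 0 were higher there, against 10.8%, 9.86%, 1.05% and 5.78% of all tested genes. The lowest were the megalin chaperone Lrpap1 (315 against 428 CPM, log2 ratio −0.44), Fcgrt (−0.20) and the motor gene Myo6 (−0.09), and the highest the AP-2 subunit genes Ap2b1 (0.50) and Ap2m1 (0.38) and the clathrin assembly gene Picalm (0.26). Lrpap1 and Fcgrt were also higher in S3 than in S1, and within libraries 1 to 4 Lrpap1 was at −0.15 to −0.06 and Fcgrt at −0.06 to 0.11, so no size is read from their pooled values. None of 11 scaffold genes passed in the pool or within libraries 1 to 4, from Eps8 (−0.21), Anks4b (−0.11) and Ush1c (−0.05) to Cdhr2 (0.39), Cdhr5 (0.26) and Vil1 (0.21). Of 9 brush border enzymes with enough counts 1 was lower, Mep1b (26.4 against 54.1 CPM, log2 ratio −1.03), followed by Ggt1 (−0.40) and Mep1a (−0.30), and Dpp4 (0.015) and Enpep (0.0037) were among the highest. These 3 low enzymes were also higher in S3 than in S1. Havcr1-bearing cells held fewer S3 cells in the pool. Within each library, however, Havcr1 was seen in a larger share of S3- than of S1-gated cells. In Havcr1-free cells all 3 enzymes were lowest in library 3, which held 2547 of the Havcr1-bearing cells. Mep1b stood there at 2.001 CPM, against 10.49 to 113.5 CPM in the other libraries. Ggt1 stood at 312 against 589 to 952 CPM and Mep1a at 216 against 401 to 802 CPM. The part of library and segment makeup in the pooled values was not tested. Within libraries 1 to 4 none of the enzymes was 1.5-fold lower, and 1, 0, 1 and 2 were higher, against the same shares of all tested genes as above. Their median there was 0.14 to 0.28 against −0.11 in the pool, so no direction is read from the pooled enzyme values.

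Vcam1 encodes an adhesion molecule that marks proximal tubule cells in incomplete repair. At least 1 UMI of it was seen in 829 proximal tubule cells (1.79%), with 241, 400, 103, 71 and 14 cells in libraries 1 to 5, and 193 of these cells also held Havcr1. In T/NK cells, which are shallower, the share was 1.09% (0.545% to 1.94%), and after thinning to 2000 UMIs it was 0.874% (0.780% to 0.976%) of proximal tubule and 0.538% (0.0652% to 1.93%) of T/NK cells. At equal depth the share in the proximal tubule was therefore not separable from that in T/NK cells in the pool. In thinned cells of library 2 it was 2.49% (2.12% to 2.90%), against 0 of 183 T/NK cells, which allows a share of up to 1.64%, or 1.996% by the exact interval. The 829 cells held 2529 Vcam1 UMIs, and the 11 T/NK cells held 11. Vcam1-bearing cells were also deeper than Vcam1-free cells (median 7842 against 4984 UMIs) and held less of the proximal tubule marker list (120 against 147 UMIs per 10000). The values below describe cells in which a Vcam1 UMI was captured, and no state of the cells is read from them.

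None of the 9 members was at least 1.5-fold lower in Vcam1-bearing cells in the pool, against 2.83% of tested genes, and 1, Mme, was higher, against 11.7%. Within libraries 1 to 4 the count lower was 0, 0, 2 and 2, against 4.76%, 2.90%, 10.9% and 12.4% of tested genes, with Dpep1 (−0.73) and Anpep (−0.59) in library 3 and Dpep1 (−1.004) and Cubn (−0.59) in library 4. Mme stood at 47.3 against 26.6 CPM (log2 ratio 0.83, 0.68 to 0.98), with log2 ratios of 0.97, 0.33, 0.60 and 0.98 in libraries 1 to 4, and library 5 had too few cells for a value. In these cells the podocyte list stood at 15.1 against 4.04 CPM, the fibroblast and pericyte list at 9.59 against 1.41 CPM and the endothelial list at 8.09 against 2.71 CPM, and podocytes, fibroblasts and pericytes held more Mme than the proximal tubule. The part of such transcripts in the Mme value was not tested. Dpep1 had 44.5 against 64.3 CPM (log2 ratio −0.53, −0.69 to −0.38), with −0.49 and −0.37 in libraries 1 and 2, and was past 1.5-fold without library 2 (−0.71) and without library 5 (−0.61). Lrp2 had 702 against 880 CPM (log2 ratio −0.33, −0.36 to −0.29), with −0.32, −0.28, −0.40 and −0.56 in libraries 1 to 4. With at least 2 Vcam1 UMIs it was at −0.60 and Dpep1 at −0.57. Of the 11 injury genes 10 were higher, 1 of them Vcam1 itself, and of the 20 endocytic machinery, 12 scaffold and 9 enzyme genes with enough counts 1, 1 and 0 were higher and none lower.

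Over 16 classes (the 13 classes outside the proximal tubule and S1, S2 and S3), the level patterns of Cubn and Amn were the most alike among the members, with a Pearson r of 0.990 on log2(CPM + 1), followed by Lrp2 and Pdzk1 with 0.973. Mme and Dpep1 had the lowest r, −0.22. The classes share libraries and free RNA, and r is given as a description. Podocytes and erythroid cells held only 58966 and 36444 UMIs in all, where 3 UMIs already make 50.9 and 82.3 CPM. Cubn and Amn both had 0 UMIs in these 2 classes and Lrp2 had 3 and 5, and r of Lrp2 with Cubn was 0.775. The part of such shallow classes in r, in the ranking and in the nearest genes below was not tested. Among other genes, the patterns nearest to Lrp2 were those of AI314278 (0.981), Glyat (0.978) and Slc17a1 (0.978), nearest to Cubn those of Acmsd (0.970), Myo15b (0.969) and Qprt (0.966), nearest to Amn those of 1700016C15Rik (0.981), Acmsd (0.975) and Qprt (0.971), and nearest to Pdzk1 those of Cyp2e1 (0.969), Mettl7b (0.963) and AI314278 (0.963). Acmsd and Qprt, which encode enzymes of the kynurenine pathway, were thus near Cubn and Amn. For the other 5 members the highest r was lower, with Ppif for Clcn5 (0.926), Tfpi2 for Dpep1 (0.914), Kank1 for Mme (0.854), Nr1i2 for Dab2 (0.843) and Esd for Anpep (0.756).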

How the data were processed

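Whole kidneys were dissociated and libraries were made with the 10x Genomics 3′ v3.1 kit. Per the submitters' processing notes and methods, the authors aligned reads to mm10 (Ensembl GRCm38.93) with Cell Ranger 6.0 (the file header gives 6.0.1) and deposited 1 merged matrix of raw UMI counts, before any cell was called. The methods name several matrices per condition, and the matrix holds 5 libraries.

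Cells were called in each library in the 2 steps Cell Ranger uses. Step 1 took barcodes with at least 10% of a reference depth, read near the top of the 3000 deepest barcodes, and step 2 tested barcodes with at least 500 UMIs, up to 20000 per library, against the profile of ranks 45000 to 90000 (10000 simulations, adjusted p at most 0.01). Cells with under 200 genes or over 25% of UMIs on 13 mitochondrial genes were left out. The proximal tubule gate needed 30 UMIs per 10000 on its marker list, which included Slc34a1, Slc27a2, Miox, Keg1, Acsm2, Fbp1 and Hnf4a. The other gates needed 3 UMIs on 2 markers, 5 UMIs per 10000 and 5 times the free RNA rate, which was taken as at most 4 per 10000. S1 and S3 needed 10 UMIs per 10000 on 2 markers and 3 times the other list, and S2 needed 10 on its list and neither of these. The limits were set after the distributions of the marker sums were seen. No doublet caller was run. Cells in more than 1 gate were left out.

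Counts were summed per class. Poisson, Clopper-Pearson and conditional binomial 95% intervals cover counting error only, and PCR duplicates were removed by the UMIs. The labels do not tie the 5 libraries to conditions. Values were therefore given for the pool and for each library, and no p-value was computed. A gene was called at 1.5-fold in CPM, over genes with at least 5 CPM in either group. Thinning drew 2000 UMIs per cell. The steps were tested on simulated data. The members and gene lists were chosen with earlier results of these data known. All members are named, with the 3 largest and 3 smallest log2 ratios of each list in the Havcr1 and segment comparisons (1 such value is not reported here) and, for likeness, the nearest genes over classes among genes with at least 5 CPM in the proximal tubule. Alternatives covered cell calling, mitochondrial limit, gates, averaging, depth, denominator, deepest cells, fold and each library left out. Python 3.11.15, numpy 2.4.6, scipy 1.17.1 and pandas 2.3.3 were used.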

Additional observations from a re-analysis of the deposited data

How the results depend on the processing

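No paired test was run, and no result comes from a test. Both groups of each comparison lie in the same libraries. The ratio within each library is given, and a test over these ratios was not run, since the libraries are not labelled as replicates of 1 condition. The counts of members 1.5-fold higher in the proximal tubule (8), higher in S1 (3) and lower in S1 (1) stayed within 1.5 times of these values under every alternative run. Clcn5 was under 1.5-fold in 11 of the 17 alternatives of the segment comparison. The count of members lower in Havcr1-bearing cells, 1, was 0 with the proximal tubule minimum doubled and with a 2-fold limit, and 0 to 1 over the libraries left out in turn (0 without library 2 or 4). Dpep1 was at −0.56 with the minimum doubled, −0.56 without library 2 and −0.45 without library 4, and its value of −0.62 did not pass the 2-fold limit. The count lower in Vcam1-bearing cells, 0, was 1 with at most 10% mitochondrial UMIs, with the proximal tubule minimum halved, with the mean over cells, in cells thinned to 2000 UMIs, without the deepest 5896 cells and with at least 2 Vcam1 UMIs, and 0 to 1 over the libraries left out (1 without library 2 or 5). The gene was Dpep1, at −0.61 to −1.19 on the log2 scale, except with at least 2 Vcam1 UMIs, where it was Lrp2 at −0.60.

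Chosen after seeing the data were the median of the within-library ratios, single segments and leaving out cells with shared barcode sequences. The Havcr1 count was 0 in S2-gated cells. The median log2 ratio of the members was 0.11 in S3-gated cells and −0.23 to −0.06 in all other alternatives. The Vcam1 count was 1 in S1-gated cells, in S3-gated cells and with the median over libraries. Leaving out shared barcodes changed no count. The cause of these shifts was not tested. In Havcr1-bearing cells the signs of Lrp2, Clcn5, Dpep1 and Pdzk1 were kept in all 20 alternatives of that comparison, those of Cubn, Amn and Anpep in 18, Dab2 in 17 and Mme in 16. Depth limits Mme, Anpep and Dpep1 most, and podocytes, intercalated and erythroid cells by their number.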
